A study of Mus musculus with 7 samples.

Results

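The 4 ErbB receptors Egfr, Erbb2, Erbb3 and Erbb4, and 5 of their ligands, Hbegf, Tgfa, Nrg1, Nrg2 and Nrg3, were followed across 7 RNA-seq libraries of mouse high-grade glioma cells and neural progenitors. These 9 genes were taken by name after the Ensembl identifiers of the files had been matched to mouse symbols, and all 9 were found among the 17422 genes listed. ErbB receptors are receptor tyrosine kinases that dimerise when a ligand of the epidermal growth factor (EGF) family binds. EGFR takes up EGF, TGF-alpha and HB-EGF, ErbB3 and ErbB4 take up neuregulins, and ErbB2, which has no known ligand of its own, serves as a dimer partner. In the brain the EGFR pathway drives the division of neural progenitors, and activated forms of EGFR, among them the truncated EGFRvIII, are oncogenes of human glioma.

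All cells derived from neural precursors of Balb/c mouse embryos at day 14, grown in medium with B27, human bFGF and EGF (10 ng/ml) and infected with retroviral vectors. The first group comprised 3 gliomas labelled PDGF-B, from wild-type precursors given a vector for PDGF-B and the red fluorescent protein DsRed. The second group comprised 3 gliomas labelled EGFRvIII, from Ink/Arf -/- precursors given a vector for EGFRvIII and DsRed, so the genotype changes wherever the oncogene does. For both, 20000 cells were placed in the brain of adult BALB/c mice 10 days after plating, and the tumours were taken at the first neurological signs and sorted for DsRed by flow cytometry. The third group was 1 culture of wild-type progenitors transduced with PDGF-B and sorted for DsRed, which has no replicate. The sources used here do not give the promoter driving each oncogene, the number of infected clones in a tumour, or the species of the transgene sequences.

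Levels of the oncogenes themselves went against the labels. Egfr, the gene of the receptor from which EGFRvIII derives, was measured at 4952, 5109 and 3594 CPM (reads per 1e6 reads of the library, after the authors' scaling) in gliomas labelled PDGF-B, and at 41.2, 26.9 and 25.6 CPM in gliomas labelled EGFRvIII. Pdgfb stood at 1.95, 2.97 and 4.88 CPM in gliomas labelled PDGF-B, at 386, 284 and 277 CPM in gliomas labelled EGFRvIII, and at 245 CPM in the culture. Each oncogene's own symbol was thus low in all 3 gliomas named after it and high in all 3 named after the other. Cdkn2a, which lies in the Ink/Arf locus, was at 3.52, 2.94 and 4.99 CPM in the first group and at 22.7, 26.1 and 11.1 CPM in the second, which is labelled Ink/Arf -/- (the sources used here do not say which exons the deletion removes). Pdgfra, the gene of a receptor for PDGF-B, was at 3825, 4797 and 1738 CPM in the first group, 1904, 1402 and 1773 CPM in the second and 408 CPM in the culture, and the glioma groups overlapped. Groups are therefore named by their labels throughout, and every direction given refers to those labels.

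Recovered depth was 32513754 to 39062584 reads per library. Of the marker lists, the 12 genes of microglia and macrophages summed to 308 to 951 CPM in gliomas labelled PDGF-B, 3859 to 9851 CPM in gliomas labelled EGFRvIII and 7.51 CPM in the culture, where C1qb, Trem2 and Tyrobp were at 0. The 7 markers of oligodendrocyte precursors summed to 5742 to 11658, 4482 to 4893 and 1869 CPM in the same order. The 7 markers of myelinating oligodendrocytes summed to 494 to 635, 242 to 429 and 132 CPM, the 6 of astrocytes to 1694 to 1976, 1233 to 1409 and 1438 CPM, and the 6 of neural stem cells to 739 to 2249, 1536 to 2399 and 7610 CPM. The astrocyte sum is mostly Slc1a2 and Slc1a3, and within the label PDGF-B it was lowest in replicate 3, at 1694 CPM. Slc1a2 was lower in that library, at 656 CPM against 1469 and 1619 CPM in replicates 1 and 2. Slc1a3 was higher, at 743 CPM against 367 and 311 CPM. The other astrocyte genes were also higher in PDGF-B replicate 3 than in the others of its label. There Aldh1l1 was at 56.9 CPM, Aqp4 at 40.7, Gja1 at 14.3 and Gfap at 184 CPM, against 0.262 and 0.667, 0.757 and 3.70, 0.350 and 0.303, and 8.50 and 41.2 CPM in replicates 1 and 2 of that label. EGFRvIII replicates 2 and 3 lay between these levels for each gene. In the same order they were at 5.47 and 5.89, 27.6 and 11.7, 8.70 and 8.20, and 97.1 and 57.4 CPM. EGFRvIII replicate 1 was at 0.803, 3.67, 0.315 and 21.6 CPM. In the culture the same genes were at 101, 54.4, 37.4 and 193 CPM, above every glioma. Neuronal markers (7 genes) summed to 101 to 210, 58.0 to 124 and 40.2 CPM, and endothelial (5) and mural or fibroblast markers (6) to at most 28.5 CPM in any library. In these bulk samples, fewer cells of a type and less RNA per cell cannot be told apart. The part of these cell types in the results below was not tested.

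Egfr (ENSMUSG00000020122; GRCm38 chr11:16752203-16918158, plus strand) had the largest log2 difference of the 9 genes between the glioma groups. Its mean was 4552 ± 833 CPM (SD, n = 3) in gliomas labelled PDGF-B and 31.2 ± 8.63 CPM (SD, n = 3) in gliomas labelled EGFRvIII, a ratio of 146. The culture lay between the groups at 282 CPM, and no glioma of either label crossed it. The difference between the glioma groups was 7.20 on the log2 scale (SE 0.26, 95% interval 6.60 to 7.81, limma adjusted p = 0.000187, n = 3 and 3). Gliomas labelled PDGF-B exceeded the culture by a log2 difference of 3.99 (SE 0.36, limma adjusted p = 0.00192), and gliomas labelled EGFRvIII lay below it with a log2 difference of -3.21 (SE 0.36, limma adjusted p = 0.00225). The calls held in every fit that left out 1 glioma. Counts are per gene, so reads of a transgene that matches mouse Egfr and reads of the endogenous gene cannot be told apart.

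Ranked by CPM per kb of exon among 17254 genes with a symbol, Egfr stood at positions 27, 30 and 65 in gliomas labelled PDGF-B. In gliomas labelled EGFRvIII it stood at positions 9443, 10774 and 11231, and in the culture at position 2049. It was thus among the most abundant transcripts of the first group and in the middle of the list in the second.

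The promoter sequences of the receptors Egfr, Erbb2 and Erbb4 are shown as a description, and their part in the levels was not tested. Egfr reads may include those of a transgene, whose promoter the sources used here do not give. Egfr and Erbb2 were called between the glioma groups, and Erbb4 did not pass the test. RefSeq entries were matched for 5 of the 9 genes (Egfr, Erbb2, Erbb4, Tgfa and Nrg3), so Erbb3, which was also called, is not shown. The 250 bases before the start annotated in those entries are given on the strand of the gene, 5′ to 3′, from GRCm38.p6, with any GC box (GGGCGG, or CCGCCC for the other strand) in capitals. For Erbb2 this window reaches past the gene start used elsewhere in the text, 98412470. The Egfr window is chr11:16751953-16752202 on the plus strand, the Erbb2 window chr11:98412234-98412483 on the plus strand, and the Erbb4 window chr1:69108060-69108309 on the minus strand.
Egfr: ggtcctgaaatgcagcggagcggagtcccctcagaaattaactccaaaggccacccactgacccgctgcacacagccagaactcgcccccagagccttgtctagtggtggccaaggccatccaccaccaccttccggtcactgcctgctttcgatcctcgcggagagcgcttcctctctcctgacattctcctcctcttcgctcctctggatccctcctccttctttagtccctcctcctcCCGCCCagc
Erbb2: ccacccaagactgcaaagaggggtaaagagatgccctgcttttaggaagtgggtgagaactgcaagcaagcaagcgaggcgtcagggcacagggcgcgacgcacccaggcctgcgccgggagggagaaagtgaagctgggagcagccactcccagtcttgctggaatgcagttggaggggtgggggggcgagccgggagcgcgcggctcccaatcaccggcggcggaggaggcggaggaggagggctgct
Erbb4: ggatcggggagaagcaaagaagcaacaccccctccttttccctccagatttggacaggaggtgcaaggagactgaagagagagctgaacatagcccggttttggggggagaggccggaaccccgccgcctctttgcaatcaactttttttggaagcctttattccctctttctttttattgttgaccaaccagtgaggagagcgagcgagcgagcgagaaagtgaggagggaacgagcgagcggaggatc

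The Egfr window held 1 GC box, Tgfa 2, and Erbb2, Erbb4 and Nrg3 none, where 32.7% of 32851 windows of the same length held at least 1. The letters TATAAA, searched on both strands, were in none of the 5 windows and in 12.4% of all windows. CCAAT, also searched on both strands, was present once in Erbb2, in none of the other 4, and in 33.8% of all windows. CpG dinucleotides numbered 11 in Egfr, 16 in Erbb2, 12 in Erbb4, 19 in Tgfa and 27 in Nrg3, against a median of 6 over all windows. These are descriptions of letters and say nothing of binding.

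Erbb2 (ENSMUSG00000062312; chr11:98412470-98437716, plus strand), the partner receptor without a ligand, had its highest level in the culture. It was read at 2.40, 4.04 and 5.10 CPM in gliomas labelled PDGF-B, at 0.344, 0.239 and 0.629 CPM in gliomas labelled EGFRvIII, and at 10.9 CPM in the culture. The glioma groups did not overlap. The values in gliomas labelled EGFRvIII rest on 12, 8 and 23.1 estimated reads, against 376 reads in the culture. Erbb2 was higher in gliomas labelled PDGF-B by 3.10 on the log2 scale (SE 0.48, 95% interval 1.97 to 4.24, limma adjusted p = 0.0284, n = 3 and 3), a ratio of mean CPM of 9.52. Against the culture, the log2 difference was -4.66 for gliomas labelled EGFRvIII (SE 0.67, limma adjusted p = 0.00572) and -1.55 for gliomas labelled PDGF-B (SE 0.67, 95% interval -3.12 to 0.01, limma adjusted p = 0.187), which did not pass the test.

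Erbb3 (ENSMUSG00000018166; chr10:128567523-128589652, minus strand) encodes a neuregulin receptor whose own kinase is weak and which signals through a partner. It was at 132, 145 and 118 CPM in gliomas labelled PDGF-B, 60.5, 62.1 and 47.0 CPM in gliomas labelled EGFRvIII and 3.36 CPM in the culture. Every glioma exceeded the culture, and the 2 glioma groups did not overlap. Erbb3 rose against the culture by 5.26 in gliomas labelled PDGF-B (SE 0.26, limma adjusted p = 0.00031) and by 4.04 in gliomas labelled EGFRvIII (SE 0.26, limma adjusted p = 0.000336), both as log2 differences. Between the glioma groups it was higher in those labelled PDGF-B by 1.22 on the log2 scale (SE 0.18, 95% interval 0.80 to 1.65, limma adjusted p = 0.0262). The summed myelinating and precursor markers were also highest in gliomas labelled PDGF-B and lowest in the culture, but not every gene followed its sum. In each list, 4 of 7 genes were higher in every glioma labelled PDGF-B than in any labelled EGFRvIII, 0 were lower in all, and limma called 2. Over all genes, the groups did not overlap for 22.9%, and 3.35% were called. Mbp and Mobp had lower means in gliomas labelled PDGF-B, at 97.5 against 98.5 and 13.2 against 33.0 CPM. Olig2 and Mog were higher in the culture, at 555 and 0.434 CPM, than in the mean of gliomas labelled EGFRvIII, at 504 and 0.375 CPM. Mog rested on 5 to 37 reads in the gliomas. The part of these markers in the Erbb3 levels was not tested.

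The glioma calls of Erbb2 and Erbb3 depended on which libraries entered. Both calls ended when any single glioma other than PDGF-B replicate 3 was dropped (5 of 6 fits) and held without that library, with limma adjusted p from 0.0288 to 0.106 for Erbb2 and from 0.0153 to 0.106 for Erbb3. Their log2 differences stayed between 2.83 and 3.43 and between 1.09 and 1.30 across those fits. That library differed from the others of its label in the astrocyte genes given above and in other lists. Its summed microglia and macrophage markers were higher, at 951 CPM against 308 and 437 CPM. Its neural stem sum was also higher, at 2249 CPM against 960 and 739 CPM. Its precursor sum was lower, at 5742 CPM against 8657 and 11658 CPM. The part of these markers in the calls was not tested.

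Erbb4 (ENSMUSG00000062209; chr1:68032186-69108059, minus strand), a neuregulin receptor with an active kinase, did not pass the test in any of the 3 comparisons. It was at 232, 336 and 162 CPM in gliomas labelled PDGF-B, 242, 127 and 164 CPM in gliomas labelled EGFRvIII and 82.2 CPM in the culture. The glioma groups overlapped, and all 6 gliomas exceeded the culture. Lying wholly on 1 side of the single culture library was common, holding for 13753 of 17422 genes in gliomas labelled PDGF-B and 11093 in gliomas labelled EGFRvIII. The log2 difference between the glioma groups was 0.44 (SE 0.34, 95% interval -0.35 to 1.23, limma adjusted p = 0.541). Against the culture it was 1.50 for gliomas labelled PDGF-B (SE 0.47, limma adjusted p = 0.0930) and 1.06 for gliomas labelled EGFRvIII (SE 0.47, 95% interval -0.05 to 2.17, limma adjusted p = 0.228). Without PDGF-B replicate 3 the first of these became 1.76 with limma adjusted p = 0.0451, the lowest of its 3 fits without 1 glioma, which reached up to 0.188.

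**Figure D1:**
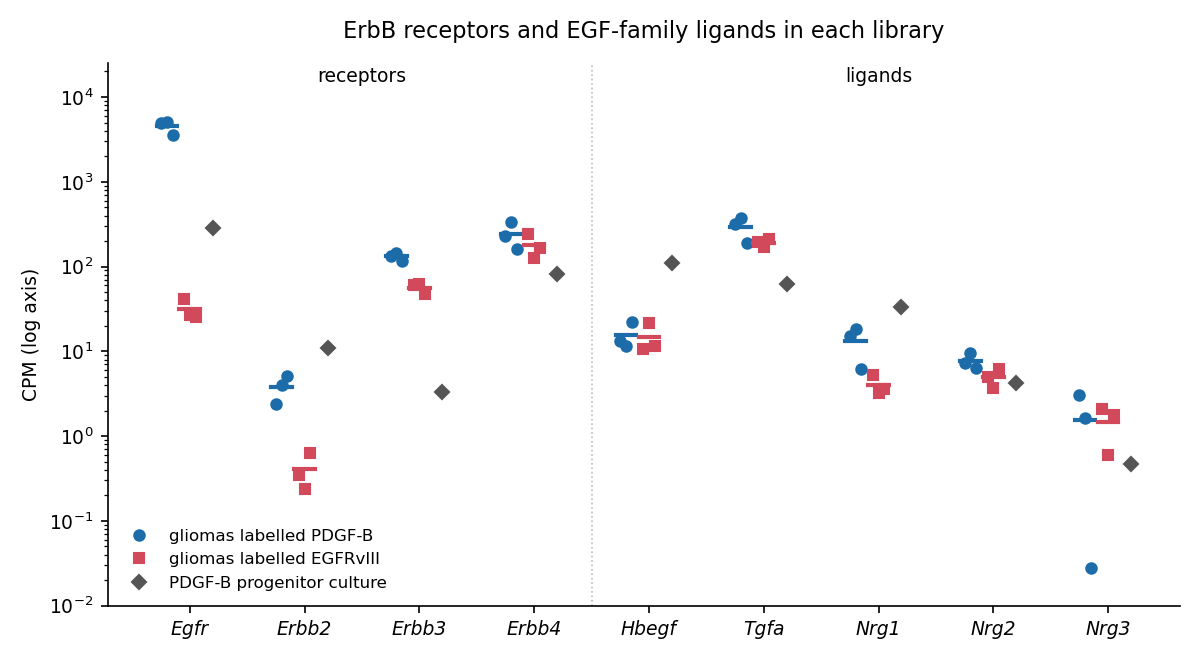
CPM of each of the 9 genes (log axis) in each library, with the 2 glioma groups, as labelled, and the progenitor culture side by side; points are libraries and short lines are group means. The Egfr points of the 2 glioma groups lie on either side of the culture at 282 CPM, while the Hbegf points of both groups lie below it and the Tgfa points above it.

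The mixture of receptor transcripts was compared within each library, as each receptor's CPM per kb of exon divided by the sum over the 4. Egfr made up 90.5% ± 0.87 (SD, n = 3) of the sum in gliomas labelled PDGF-B, 10.3% ± 0.63 (SD, n = 3) in gliomas labelled EGFRvIII and 72.8% in the culture. Erbb4 made up 4.36% ± 0.91 and 53.3% ± 7.61 (SD, n = 3 each) in the glioma groups and 19.4% in the culture. Erbb3 made up 4.98% ± 0.52 and 36.1% ± 7.75 (SD, n = 3 each) in the glioma groups and 1.63% in the culture. By this measure the neuregulin receptors were most of the receptor transcripts in gliomas labelled EGFRvIII, and Egfr was most of them in the other libraries. Erbb3 had the lower share in gliomas labelled PDGF-B although its CPM was higher there, because the sum includes Egfr. Reads of a transgene that matches mouse Egfr would count in the Egfr share, so the shares may not be those of endogenous transcripts alone. The summed level of the 4 receptors was 444 ± 81.6 CPM per kb in gliomas labelled PDGF-B, 26.6 ± 5.84 CPM per kb in gliomas labelled EGFRvIII (SD, n = 3 each) and 34.2 CPM per kb in the culture. Erbb2 was 0.176% ± 0.093 and 0.304% ± 0.18 (SD, n = 3 each) of the sum in the glioma groups and 6.10% in the culture. These shares are descriptions, without a test.

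**Figure D2:**
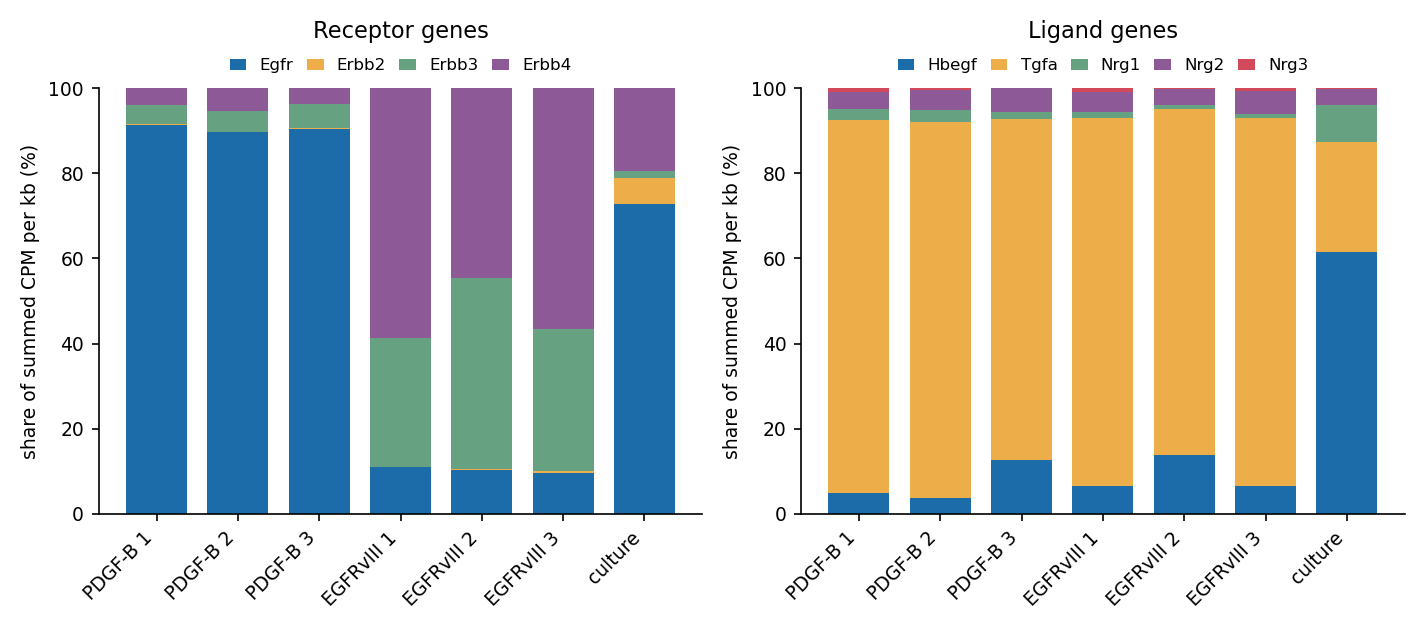
Share of each receptor (4 genes) and of each ligand (5 genes) in the summed CPM per kb of exon of its family, in percent, 1 bar per library. Egfr fills about 90.5% of the receptor bars labelled PDGF-B and 10.3% of those labelled EGFRvIII, and Tgfa fills most of every glioma ligand bar while Hbegf fills 61.4% of the culture's.

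Tgfa (ENSMUSG00000029999; chr6:86195223-86275719, plus strand) encodes TGF-alpha, a ligand of EGFR that is released from the membrane by metalloproteases. It was the most abundant of the 5 ligands per kb in every glioma. Its level was 320, 372 and 188 CPM in gliomas labelled PDGF-B, 192, 171 and 209 CPM in gliomas labelled EGFRvIII and 62.0 CPM in the culture. The glioma groups overlapped, with PDGF-B replicate 3 inside the range of the other label, and all gliomas exceeded the culture. The log2 difference between the glioma groups was 0.57 (SE 0.28, 95% interval -0.08 to 1.21, limma adjusted p = 0.355). Against the culture, Tgfa rose by 2.18 in gliomas labelled PDGF-B (SE 0.39, limma adjusted p = 0.0157) and by 1.62 in gliomas labelled EGFRvIII (SE 0.39, limma adjusted p = 0.0422), as log2 differences. The second call ended in each of the 3 fits without 1 glioma, with limma adjusted p from 0.0642 to 0.107. The first ended when only the 4 libraries it compares were fitted, with limma adjusted p = 0.0715, the highest of its 8 other alternatives, which began at 0.0148.

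Hbegf (ENSMUSG00000024486) encodes HB-EGF, a heparin-binding ligand of EGFR and ErbB4. It was at 13.1, 11.4 and 22.0 CPM in gliomas labelled PDGF-B, 10.7, 21.7 and 11.5 CPM in gliomas labelled EGFRvIII and 109 CPM in the culture. The glioma groups overlapped over nearly their whole range, and every glioma was below the culture. The log2 difference between the glioma groups was 0.10 (SE 0.37, 95% interval -0.77 to 0.98, limma adjusted p = 0.904). Against the culture Hbegf was lower by a ratio of 7.06 in gliomas labelled PDGF-B (log2 difference -2.87, SE 0.51, limma adjusted p = 0.0166) and of 7.48 in gliomas labelled EGFRvIII (log2 difference -2.98, SE 0.51, limma adjusted p = 0.0126). With only gliomas labelled PDGF-B and the culture in the fit, the first call ended at limma adjusted p = 0.0510, the highest of its 8 other alternatives, which began at 0.0138.

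As a share of the 5 ligands per kb of exon, Tgfa was 85.4% ± 4.60 in gliomas labelled PDGF-B and 84.8% ± 3.08 in gliomas labelled EGFRvIII (SD, n = 3 each), against 25.9% in the culture. Hbegf was 7.02% ± 4.86 and 8.89% ± 4.28 (SD, n = 3 each) in the glioma groups, against 61.4% in the culture. The ligand sum was 52.4 ± 14.6 and 34.6 ± 2.34 CPM per kb (SD, n = 3 each) in the glioma groups and 36.9 CPM per kb in the culture. Tgfa thus led the ligands in every glioma of either label and Hbegf led them in the culture, while the leading receptor differed between the labels.

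Nrg1 (ENSMUSG00000062991; chr8:31814551-32884029, minus strand), a neuregulin that binds ErbB3 and ErbB4, was at 15.0, 18.5 and 6.25 CPM in gliomas labelled PDGF-B. In gliomas labelled EGFRvIII it was at 5.27, 3.23 and 3.60 CPM, and in the culture at 33.7 CPM. The glioma groups did not overlap, by a narrow margin at PDGF-B replicate 3, and the culture exceeded all gliomas. The log2 difference between the glioma groups was 1.60 (SE 0.45, 95% interval 0.53 to 2.66, limma adjusted p = 0.124), which did not pass. Without PDGF-B replicate 3 it became 2.07 with limma adjusted p = 0.0161, where the 6 fits without 1 glioma ranged up to 0.415. Gliomas labelled EGFRvIII were below the culture by a ratio of 8.35 (log2 difference -3.08, SE 0.63, limma adjusted p = 0.0242), a call that ended without EGFRvIII replicate 2 or 3 (limma adjusted p up to 0.0700). Gliomas labelled PDGF-B had a log2 difference of -1.48 from the culture (SE 0.63, limma adjusted p = 0.182).

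Nrg2 (ENSMUSG00000060275), which also binds ErbB3 and ErbB4, was at 7.34, 9.58 and 6.36 CPM in gliomas labelled PDGF-B, 4.99, 3.74 and 6.16 CPM in gliomas labelled EGFRvIII and 4.25 CPM in the culture. The glioma groups lay next to each other without overlap, and their log2 difference was 0.65 (SE 0.31, 95% interval -0.09 to 1.38, limma adjusted p = 0.354). Nrg3 (ENSMUSG00000041014; chr14:38368952-39473088, minus strand), a ligand of ErbB4, was at 3.03, 1.64 and 0.028 CPM in gliomas labelled PDGF-B, 2.06, 0.598 and 1.77 CPM in gliomas labelled EGFRvIII and 0.463 CPM in the culture. PDGF-B replicate 3 held 1 read of Nrg3, where the other gliomas held 20 to 104. The log2 difference between the glioma groups was -0.83 (SE 1.30, 95% interval -3.88 to 2.21, limma adjusted p = 0.756), and without that library it was 0.74. Neither gene passed the test against the culture.

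**Figure D3:**
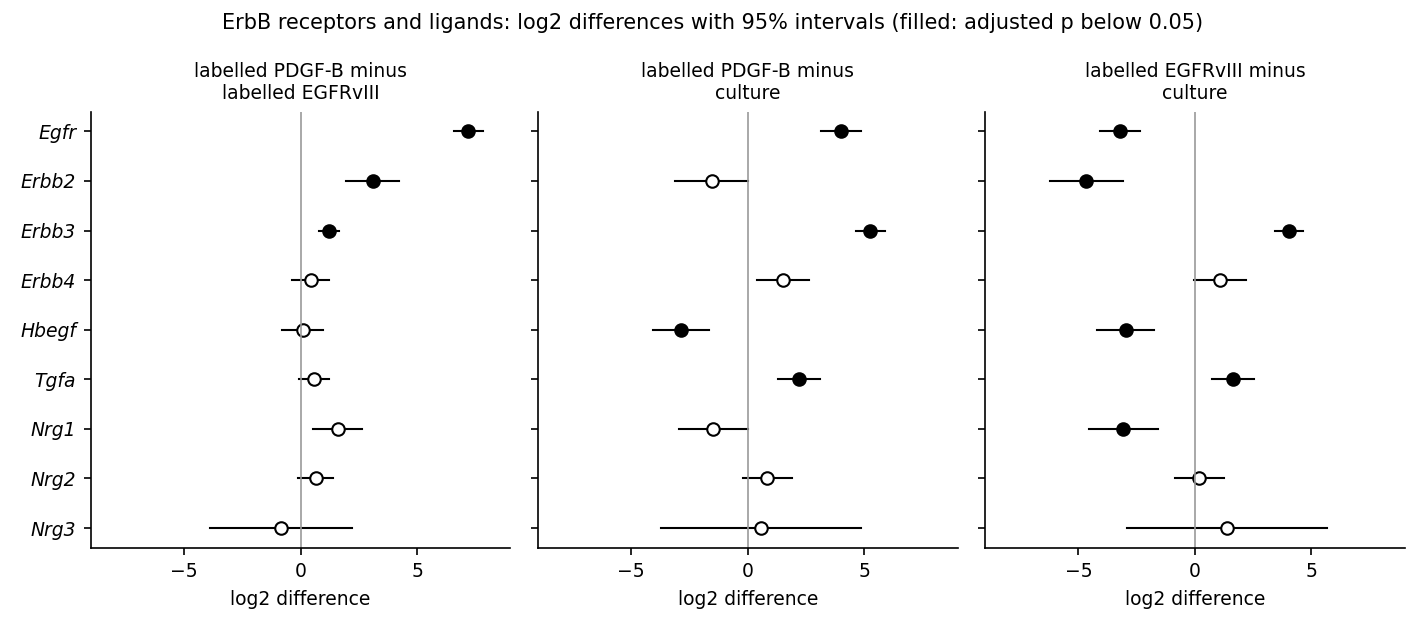
Log2 difference of each gene with its 95% interval from limma, for gliomas labelled PDGF-B minus those labelled EGFRvIII and for each glioma group minus the culture; filled points have an adjusted p below 0.05. Egfr lies at 7.20, 3.99 and -3.21 in the 3 panels, and Erbb3 and Hbegf keep their sides against the culture in both glioma groups.

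Between the glioma groups, 3 of the 9 genes were called, all higher in gliomas labelled PDGF-B, where 3.35% of all 17422 genes were called, 0.717% higher and 2.63% lower. All 3 were receptors. The Egfr level may include transgene reads, and the calls of Erbb2 and Erbb3 each held in 1 of 6 fits without 1 glioma. The 9 genes were chosen with earlier results of these data known. This count and those against the culture are therefore descriptions. None of the 5 ligands was called by limma, 1 (Nrg1) had an unadjusted p below 0.05 (16.7% of all genes had), and limma with voom weights on the recovered reads also called 0. The groups did not overlap for 5 of the 9 genes (Egfr, Erbb2, Erbb3, Nrg1 and Nrg2), against 22.9% of all genes. The median log2 difference was 0.65 over the 9 genes and 0.00 over all genes.

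Against the culture, gliomas labelled PDGF-B had 4 of the 9 genes called, with Egfr, Erbb3 and Tgfa higher and Hbegf lower, where 9.45% of all genes were called, 7.73% higher and 1.73% lower. Gliomas labelled EGFRvIII had 6 called, with Erbb3 and Tgfa higher and Egfr, Erbb2, Hbegf and Nrg1 lower, where 9.55% of all genes were called, 8.2% higher and 1.34% lower. The median log2 difference over the 9 genes was 0.84 and 0.19 in these comparisons, and over all genes 0.04 and 0.01. All gliomas of a label lay on 1 side of the culture for 8 of the 9 genes in each comparison. The same held for 13753 and 11093 of all 17422 genes, so this trait is common. The comparisons share the 1 culture library, which is assumed to vary like the gliomas, so that an odd value there would enter both.

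By CPM per kb of exon, the order in gliomas labelled PDGF-B was Egfr (402 ± 73.6), Tgfa (45.2 ± 14.6), Erbb3 (21.9 ± 2.26), Erbb4 (19.7 ± 7.07), Hbegf (3.21 ± 1.18), Nrg2 (2.47 ± 0.53), Nrg1 (1.28 ± 0.61), Erbb2 (0.738 ± 0.26) and Nrg3 (0.229 ± 0.22; SD, n = 3 throughout). The libraries of Erbb3 and Erbb4 overlapped, as did those of Hbegf and Nrg2 and those of Nrg1 and Erbb2, so these neighbours were not separated. In gliomas labelled EGFRvIII the order was Tgfa (29.4 ± 2.89), Erbb4 (14.4 ± 4.76), Erbb3 (9.40 ± 1.38), Hbegf (3.03 ± 1.27), Egfr (2.76 ± 0.76), Nrg2 (1.58 ± 0.39), Nrg1 (0.390 ± 0.10), Nrg3 (0.217 ± 0.11) and Erbb2 (0.0775 ± 0.039; SD, n = 3 throughout). Here Erbb4 overlapped with Erbb3, Hbegf with Egfr, and Nrg3 with Erbb2. In the culture the order was Egfr (24.9), Hbegf (22.6), Tgfa (9.55), Erbb4 (6.65), Nrg1 (3.25), Erbb2 (2.09), Nrg2 (1.36), Erbb3 (0.558) and Nrg3 (0.0679), from 1 library. Egfr thus led the order in gliomas labelled PDGF-B and stood below Tgfa, Erbb4 and Erbb3 in those labelled EGFRvIII, and Erbb3 was next to last in the culture.

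Around the 9 genes, 49 of 54 listed genes of the pathway were measured: 2 further ligands, 8 sheddases and their carriers, 12 restraining proteins and 27 adaptors and effectors. The ligands Areg, Ereg, Btc and Epgn and the ubiquitin ligase gene Cblc were not among the genes of the files. Of the 49, 1 was called between the glioma groups (3.35% of all genes were), lower in gliomas labelled PDGF-B, and 9 had an unadjusted p below 0.05, as did 16.7% of all genes. Their median log2 difference was 0.09, beside 0.00 over all genes. By role, limma called 0 of the 27 adaptors and effectors (4 with an unadjusted p below 0.05, 0 with voom weights) and 0 of the 12 restraining proteins (2 and 0). These counts are near the shares over all genes.

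The called gene was Rhbdf2, which encodes iRhom2, a carrier of the sheddase ADAM17. It was at 1.54, 2.27 and 5.97 CPM in gliomas labelled PDGF-B, 20.2, 21.0 and 14.9 CPM in gliomas labelled EGFRvIII and 1.30 CPM in the culture. Gliomas labelled EGFRvIII stood above all other libraries. The log2 difference between the glioma groups was -2.72 (SE 0.50, limma adjusted p = 0.0359), and gliomas labelled EGFRvIII rose above the culture by 3.77 (SE 0.71, limma adjusted p = 0.0181). The first call held in 1 of 6 fits without 1 glioma, that without PDGF-B replicate 3 (limma adjusted p 0.00305, and up to 0.152 in the others), and the second in 1 of 3 (up to 0.0563). The first also ended without trend and robust moderation (0.0578), and the second with voom weights (0.0509). The summed microglia and macrophage markers, 308 to 951 CPM against 3859 to 9851 CPM, were higher in the same gliomas, and all 12 of these markers were called; their part in the Rhbdf2 level was not tested.

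Gliomas labelled PDGF-B had 5 of the 49 genes called against the culture (9.45% of all genes were), 4 higher and 1 lower, and 1, Adam12, with voom weights. The median log2 difference of the 49 was 0.24, and 0.14 in gliomas labelled EGFRvIII, beside 0.04 and 0.01 over all genes. Adam12, a metalloprotease gene, was at 745, 596 and 431 CPM against 135 CPM in the culture and rose by 2.09 (SE 0.38, limma adjusted p = 0.0173), a call that held in all 3 fits without 1 glioma and ended when only the 4 libraries compared were fitted (limma adjusted p = 0.0586, the highest of its 8 other alternatives, which began at 0.0163). Adam9, another metalloprotease gene, was at 423, 447 and 314 CPM against 159 CPM and rose by 1.30 (SE 0.30, limma adjusted p = 0.0386). Both were above the culture in every glioma of either label, but neither was called for the label EGFRvIII. There the limma adjusted p was 0.0710 for Adam9 and 0.126 for Adam12. Lying wholly on 1 side of the culture held for 13753 and 11093 of 17422 genes for the labels PDGF-B and EGFRvIII. Shc4, an adaptor of the Shc family, rose by 1.43 (SE 0.32, limma adjusted p = 0.0362), and Eps8, an EGFR kinase substrate, by 1.39 (SE 0.32, limma adjusted p = 0.0372). The calls of Adam9, Shc4 and Eps8 each held in 1 of the 3 fits without 1 glioma, with limma adjusted p up to 0.126, 0.105 and 0.108. They each also ended in 3 of 8 other alternatives, with voom weights, without trend and robust moderation and with only the 4 libraries compared (up to 0.0736, 0.0911 and 0.0736).

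Lrig1, a membrane protein that restrains ErbB receptors, was at 257 CPM in the culture. It was at 14.5, 15.3 and 71.0 CPM in gliomas labelled PDGF-B and 19.7, 14.4 and 13.4 CPM in gliomas labelled EGFRvIII. All gliomas were below the culture, and PDGF-B replicate 3 was the highest of them. Lrig1 was lower than in the culture by log2 differences of -3.36 (SE 0.83, limma adjusted p = 0.0490) and -4.04 (SE 0.83, limma adjusted p = 0.0249) for the labels PDGF-B and EGFRvIII. Without PDGF-B replicate 3 the first was -4.11 with limma adjusted p = 0.00127, and it ended without either other replicate (up to 0.102) and in 4 of 8 other alternatives (up to 0.124), while the second ended in all 3 fits without 1 glioma (0.0575 to 0.0732). Rhbdf2 and Lrig1 were the 2 genes of the 49 called for gliomas labelled EGFRvIII against the culture, where 9.55% of all genes were called.

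The 2 further ligands measured were low throughout. Egf itself was at 4.11, 4.06 and 3.79 CPM in gliomas labelled PDGF-B, 4.10, 1.76 and 4.33 CPM in gliomas labelled EGFRvIII and 2.89 CPM in the culture. Nrg4, a ligand of ErbB4, was at 1.44, 1.77 and 1.75 CPM, then 2.84, 1.16 and 1.91 CPM, and 2.38 CPM in the culture. In both genes the glioma groups overlapped.

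**Figure D4:**
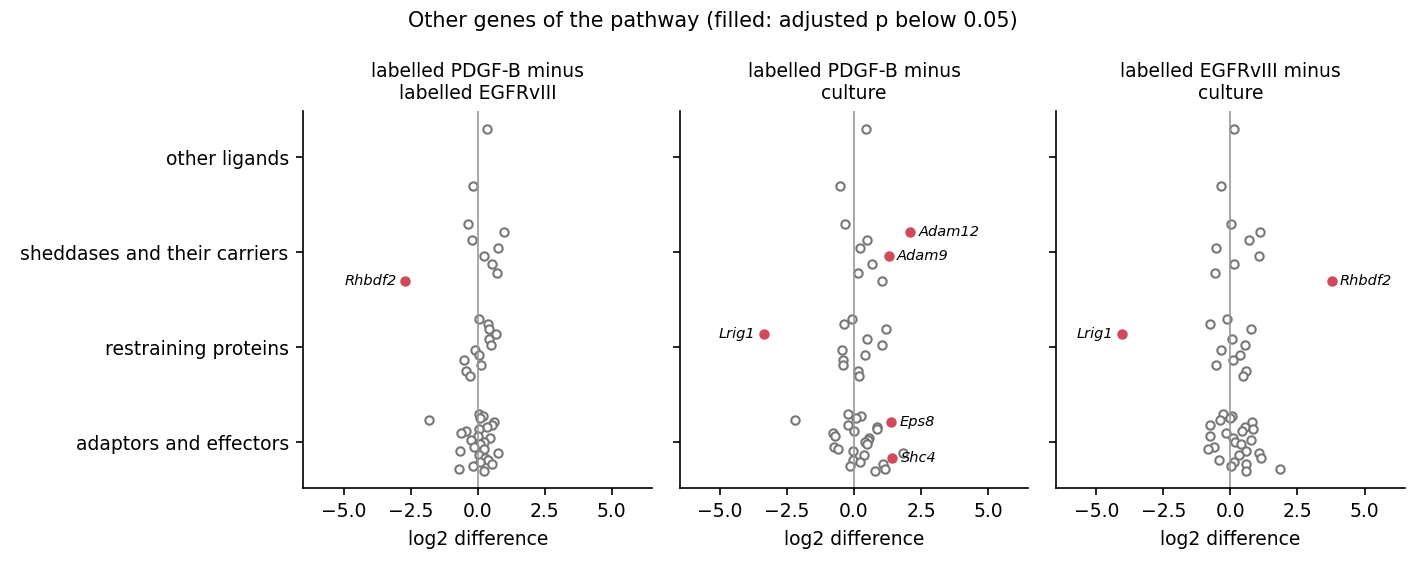
Log2 difference of 49 further pathway genes by role in the 3 comparisons; filled points have a limma adjusted p below 0.05 and are named. Most points lie near 0, with Rhbdf2 at -2.72 between the glioma groups and Lrig1 at -3.36 and -4.04 against the culture.

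For each of the 9 genes, the genes with the most similar pattern were taken by Pearson correlation of log2 CPM over the 7 libraries, among 13088 genes with a mean of at least 1 CPM. The libraries fall into 3 groups, so that any gene following the groups scores high, and the values are descriptions. Nearest to Egfr were Hunk (r = 0.98), S100a16 (0.98) and Six4 (0.98), and 15 genes exceeded 0.95. Nearest to Erbb3 were C4b (r = 1.00), Bcas1 (0.99) and Pllp (0.99), with 215 genes above 0.95, and nearest to Tgfa were Slpi (1.00), Gal3st1 (1.00) and Slc1a2 (1.00), with 326. Erbb2 was nearest to Dusp16 (0.98), Hdac7 (0.98) and Glis2 (0.97), and Erbb4 to Otud7a (0.99), B9d1os (0.99) and Fam110b (0.98). Hbegf was nearest to Fam98b (0.99), Med4 (0.99) and Snrpd1 (0.99). Nrg1 was nearest to Il17rd (0.99), Zfp68 (0.99) and Apcdd1 (0.98), Nrg2 to Prr36 (1.00), Zcchc7 (0.99) and Wipf2 (0.99), and Nrg3 to Zfp711 (0.97), Usp29 (0.95) and Ryr2 (0.93). Genes above 0.95 numbered 12 for Erbb2, 114 for Erbb4, 95 for Hbegf, 20 for Nrg1, 90 for Nrg2 and 2 for Nrg3.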

How the data were processed

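RNA of 7 DsRed-sorted cell samples had been sequenced on a BGISEQ-500. The protocol in the labels names poly(A) selection or rRNA depletion without saying which was used. STAR, edgeR and mm10 are named by the submitters' processing notes, with no version. The authors deposited log2 CPM, per the file headers of all files except that for EGFRvIII replicate 3, which names no unit but shares the floor of -4.12. The same 17422 genes stand in each file. The sources used here give neither the read counter, nor its use of strand, nor any gene filter.

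Low values were multiples of 0.01 of a step worth 1 read above a prior count of 2, and 36.2% to 38.4% per library were whole reads within 0.02. Estimated reads were recovered from these steps, and CPM is those reads over the authors' effective library size, without the prior. Symbols, coordinates and merged exon lengths came from GENCODE M21 (GRCm38); 17254 identifiers had a symbol and 168 had none. On the opposite strand, exons of Erbb2 overlap Mien1 by 9 bases, those of Tgfa Gm43917 by 118 bases and those of Nrg1 Gm26578 by 482 bases; with the use of strand unknown, reads there cannot be told apart.

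Tests were run on the deposited log2 values in limma 3.58.1 (R 4.3.3; intensity trend, robust empirical Bayes, Benjamini-Hochberg over all genes, called at an adjusted p of 0.05). A log2 difference is between means of log2 values with the prior and understates changes of genes with few reads. The glioma comparison used 6 libraries, and both culture comparisons used all 7 in 3 groups, each with 4 residual degrees of freedom. The series describes the gliomas as independent, and the labels name no batch. The script was tested on simulated data.

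All 9 listed genes are described, with Pdgfb, Pdgfra and Cdkn2a as label checks. Of 54 further pathway genes, those called between the glioma groups are named, and for each culture comparison up to 3 called genes of smallest p per role, with all further ligands. For each of the 9, the 3 genes of highest correlation are named, predicted genes left out. The members and lists were chosen with earlier results of these data known. Alternatives covered scaling, prior counts, a CPM minimum, voom weights, the moderation, a replicate block, the libraries fitted, transcript length (added after seeing the data) and leaving out each glioma.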

Additional observations from a re-analysis of the deposited data

Results flagged for a closer look

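Egfr was singled out because the glioma groups lay on opposite sides of the progenitor culture. That culture came from wild-type progenitors given PDGF-B. By their labels, gliomas labelled EGFRvIII differ from it in genotype, vector and growth in the brain, and the part of each was not tested. Yet Pdgfb in these gliomas had a log2 difference from the culture of only 0.35 (SE 0.47, limma adjusted p = 0.716). In gliomas labelled PDGF-B, which by label share the culture's vector, it was -6.30 (SE 0.47, limma adjusted p = 0.00125). Directions follow the labels, and the levels of Egfr and Pdgfb went against those labels, as given above. All 3 gliomas labelled PDGF-B were above the culture's 282 CPM, at 4952, 5109 and 3594 CPM, and all 3 labelled EGFRvIII were below it, at 41.2, 26.9 and 25.6 CPM. The difference between the groups was tested directly and came to 7.20 on the log2 scale (limma adjusted p = 0.000187). The groups had 3 gliomas each and the culture 1 library, too few for a rule that flags single libraries far from the others. PDGF-B replicate 3 nevertheless differed from the other gliomas of its label in Nrg3 and in several marker lists, as described above. Those lists were of astrocytes, microglia and macrophages, oligodendrocyte precursors and neural stem cells.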

How the results depend on the processing

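The difference in Egfr between the glioma groups was called in all 9 other alternatives (log2 difference 7.20 to 7.30) and in all 6 fits without 1 glioma (7.08 to 7.42), and both of its culture comparisons were called in every alternative run. The counts over all genes moved more. Between the glioma groups, 583 genes were called, 224 without trend and robust moderation, and 4 to 1282 with 1 glioma left out: 4, 7 and 1282 without PDGF-B replicates 1, 2 and 3, and 21, 15 and 7 without EGFRvIII replicates 1, 2 and 3. Of the 9 genes, 1 to 4 were called in those fits. Without trend and robust moderation Erbb3 had a limma adjusted p of 0.0549. For gliomas labelled PDGF-B against the culture, 1647 genes were called, 553 with voom weights, 721 with only those 4 libraries in the fit, and 854 to 2303 with 1 glioma left out, and 4 of the 9 genes became 2 with only those 4 libraries and 4 to 5 with 1 glioma left out. For gliomas labelled EGFRvIII against the culture, 1663 became 721 with voom weights and 1058 to 1612 with 1 glioma left out, where 4 to 5 of the 9 genes were called instead of 6. Tgfa in that comparison ended with library totals (limma adjusted p = 0.0523), voom weights (0.0561) and without trend and robust moderation (0.0766). Scaling by library totals moved the median log2 difference of all genes from 0.04 to 0.15 for gliomas labelled PDGF-B against the culture. Signs turned for Hbegf between the glioma groups (-0.18 without PDGF-B replicate 3, -0.09 and -0.03 without EGFRvIII replicates 1 and 3, and up to 0.42 in the other fits) and for Nrg3, to 0.74 between the glioma groups without PDGF-B replicate 3 (down to -1.84 in the other fits) and to -0.45 and -0.02 in gliomas labelled PDGF-B against the culture without replicates 1 and 2 (2.13 without replicate 3). None of these was called. The cause of these shifts was not tested, beyond the fewer libraries in the fits that leave some out. No label says that the replicate numbers pair the gliomas. Deviations of same-numbered gliomas from their group means correlated at 0.18, -0.04 and -0.08, and those of other pairs at -0.25 to 0.21. With 3 gliomas per group, these values cannot exclude a shared animal, batch or day. With the replicate block, 18 genes were called and 1 of the 9, Egfr, with Erbb2 at a limma adjusted p of 0.0595, Erbb3 at 0.0589 and Rhbdf2 at 0.0827. The fewest reads behind a value were 8 for Erbb2 and 1 for Nrg3, in 1 library each.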

Other observations

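Of 13 other measured genes within 1000000 bases of Egfr, 1 was called between the glioma groups, where 3.35% of all genes were, and it was Plek, which encodes pleckstrin, a protein of blood-derived cells. Plek was at 23.1, 40.9 and 52.5 CPM in gliomas labelled PDGF-B and 209, 479 and 184 CPM in gliomas labelled EGFRvIII (log2 difference -2.84, limma adjusted p = 0.0276). The 12 microglia and macrophage markers were all called in the same direction, with sums of 308 to 951 against 3859 to 9851 CPM, and their part in the Plek level was not tested. The other 12 had log2 differences from -0.87 to 2.05, with the highest in Vstm2a (limma adjusted p = 0.0595), at 14.1, 10.8 and 4.71 CPM against 2.58, 1.97 and 1.88 CPM. This window was chosen after the Egfr values were known.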
